A study of Mus musculus with 6 samples.

Results

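The class of testicular cells that the authors' cell table names Unknown, and places whole in the broad class DCN_enri, was described across its genes. Its members were the cells with that fine class name, 608 of 46495 cells (1.31%). Single-cell RNA sequencing covered testes of adult C57BL6 mice of genotype NONO deltaER and genotype NONO, with 3 libraries each. The testes were dissociated with enzymes, and transcripts were tagged near their 3′ end and counted by unique molecular identifier (UMI). What the deltaER change does to the protein, and whether both genotypes share another alteration, no source used here tells. The cell table names the groups KI and WT, which were read as NONO deltaER (libraries TD, TE and TF) and NONO (libraries TA, TB and TC). Were that reading wrong, every direction below would turn. The labels do not say whether each library is its own animal, and p-values then cover only the variation from library to library, part of which may be technical.

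Between the seminiferous tubules, the testis interstitium holds steroid-producing Leydig cells, macrophages, vessels and fibroblast-like stromal cells. Stromal cells of this kind lay down collagens and proteoglycans, and in mouse those with Pdgfra, the receptor of platelet-derived growth factor, are known as progenitors of Leydig and peritubular myoid cells. NONO is a nuclear protein that binds RNA and DNA and is a core part of paraspeckles, nuclear bodies built on the long noncoding RNA Neat1.

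The class held 51, 34 and 139 cells in TD, TE and TF, against 157, 189 and 38 in TA, TB and TC. Its UMI per library ran between 50284 and 316167, 1050787 in all. By the mitochondrial share of the whole library, TF, TA and TB (0.297% to 0.300% of UMI) stood apart from TD, TE and TC (0.0862% to 0.130%), so each set holds both genotypes. Library TC stood apart within the class. The 11 measured genes of the fibroblast panel took 0.443% of its UMI there, against 1.66% to 1.98% in the other 5 libraries. In TC 22 of 38 cells (57.9%, exact 95% interval 40.8% to 73.7%) held more UMI of another cell type's panel than of the fibroblast panel. No cell barcode of the class recurred within it, and 16 of its barcodes were also found on a cell of another library.

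The class carried the genes of a fibroblast. All 11 measured members of the fibroblast and mesenchymal progenitor panel had their highest mean level of the 17 deposited classes here, while Tcf21, a mesenchymal transcription factor of that panel, was not analysed here. Dcn, which encodes the collagen-binding proteoglycan decorin, was at 7518, 7935 and 7442 CPM (UMI scaled to the total of the class in a library) in TD, TE and TF, against 7287, 8941 and 2142 CPM in TA, TB and TC. The level was thus alike in 5 libraries and lower in TC. Its mean of 6878 ± 2396 CPM (SD, n = 6) stood against 145 CPM in peritubular myoid cells, the next class. A Dcn UMI was present in 582 of 608 cells (95.7%, exact 95% interval 93.8% to 97.2%), compared with 68 of 454 myoid cells, 98 of 844 Leydig cells (11.6%), 0.716% of Sertoli cells and 0.629% of macrophages. Median depth was 1249 UMI per cell in the class, 1433 in myoid cells, 1869 in Leydig cells, 1836 in Sertoli cells and 1032 in macrophages. After thinning to 1000 UMI, 89.1% of 403 cells deep enough held a Dcn UMI, against 9.18% of 316 myoid cells, 5.19% of 675 Leydig cells and 0.588% of 170 macrophages. Intervals cover counting error only, and the classes were built from these genes, so none of these contrasts is a test.

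The other markers fixed for the class behaved alike but less sharply. Pdgfra was at 1699, 1094 and 1109 CPM in TD, TE and TF, against 1063, 1299 and 215 CPM in TA, TB and TC. It was next highest in myoid cells, at 122 CPM. A Pdgfra UMI was present in 70.7% of the cells, 152 of 844 Leydig cells and 0 of 318 macrophages, which allows a share of cells with a UMI of up to 0.943% and sets no limit on cells that express the gene. Col1a1, a chain of type I collagen, was low at 175 ± 73.5 CPM (SD, n = 6), 1.85 times its level in myoid cells, and was found in 22.9% of the cells. Lum and Ly6a, 2 further panel members, were at 42.7 and 25.7 CPM and had no UMI in TC.

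The genes that led the class encoded secreted and matrix-bound proteins as well as enzymes, receptors and other proteins. Among 2112 genes at 100 CPM or more in the class, 241 had their highest mean of the 17 classes here, and 39 of them by at least 4-fold (297 and 47 without TC). Of the 25 genes that led the class, 15 had their next highest level in myoid cells, 5 in Leydig cells, 2 in macrophages and 3 in a germ cell class. Their median ratio to the next class was 9.31. In 23 of the 25, TC was the lowest library.

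**Figure D1:**
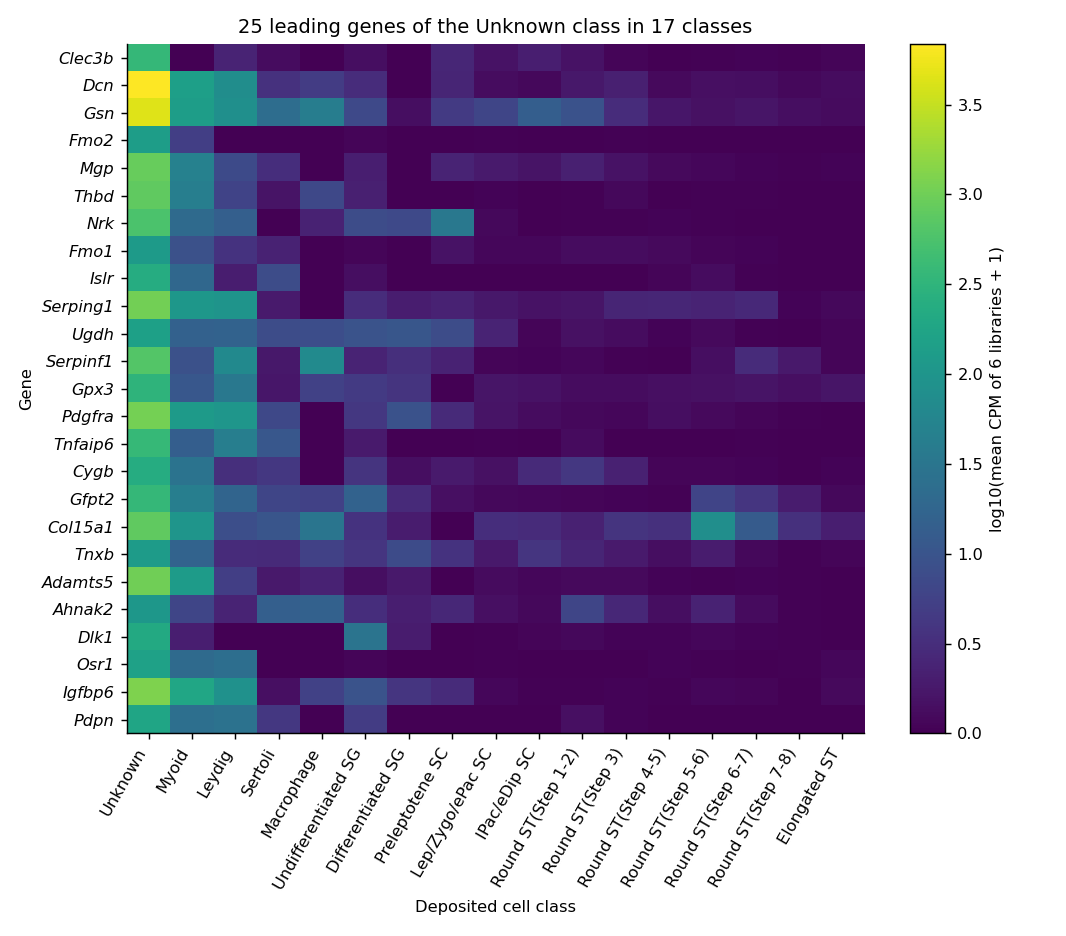
Mean level of the 25 leading genes of the Unknown class (rows) in each of the 17 deposited classes (columns), as log10 of mean CPM over 6 libraries plus 1. The first column is the brightest in every row, with Dcn (6878 CPM) and Gsn (4421 CPM) the highest, and myoid and Leydig cells hold most of the next highest values.

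Clec3b, which encodes the plasminogen-binding protein tetranectin, averaged 357 ± 171 CPM (SD, n = 6). It was nearly unseen elsewhere, with 3 UMI in preleptotene spermatocytes as the next class, a pooled ratio of 305 (95% counting interval 104 to 1483). No Clec3b UMI was found in 454 myoid cells, which allows a share of cells with a UMI of up to 0.661%. Gsn, an actin-severing protein with a secreted form, was at 4421 CPM against 135 CPM in myoid cells. Mgp, an inhibitor of calcification, was at 885 CPM against 47.1 CPM in myoid cells. Thbd, the thrombin receptor thrombomodulin, was at 791 CPM against 42.9 CPM in myoid cells. The flavin monooxygenases Fmo1 and Fmo2, which oxidise drugs and other foreign compounds, were at 124 and 134 CPM. Fmo1 was 15.5 times its level in myoid cells, and Fmo2, with 2 UMI there, had a pooled ratio of 56.8 (95% counting interval 15.4 to 474). Serping1, the inhibitor of complement C1, was at 1053 CPM, and Serpinf1, an inhibitor of vessel growth, at 645 CPM. Adamts5, a protease that cuts proteoglycans, was at 999 CPM, and Igfbp6, a binding protein of insulin-like growth factors, at 1231 CPM. Each was 6.62 to 9.88 times its level in the next class.

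Beyond the genes specific to it, the class shared some of its most abundant RNA with other classes. The genes with the most UMI outside mitochondrial and ribosomal genes were Zc3h7a (33762 CPM), Malat1 (28994 CPM) and Peak1 (26174 CPM). Zc3h7a and Peak1 were also high in the other classes. Malat1 ran from 39561 CPM in Leydig cells to 9.76 CPM in round spermatids of step 7-8. Counts from 3′ tags do not scale with transcript length, but other differences between genes in how well they are counted were not checked. Prm2 (8411 CPM), Smcp (3235 CPM) and Odf2 (2991 CPM), genes of spermatids, were among the 10 highest, and all were higher in a spermatid class. Egr1, an immediate-early transcription factor, was at 2998 CPM and had its highest mean of all classes here.

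Among the 4 lists of matrix structure, those of proteoglycans and elastic fibres had the largest shares of members highest in the class. Of the small leucine-rich proteoglycans and matricellular proteins at 20 CPM or more in the class, 15 of 16 had their highest mean here, against 612 of 7708 genes (7.94%) over all such genes. They included Bgn (745 CPM, 3.17 times the level in myoid cells), Sparcl1 (2415 CPM, 1.46 times) and Tnxb (127 CPM, 7.99 times). The elastic fibre list had 9 of 11 members highest here, with Efemp1 at 245 CPM and Fbn1 at 194 CPM. Fibrillar collagens and their processing enzymes had 10 of 16, with Col1a2 at 587 CPM and Col3a1 at 343 CPM, 2.37 and 2.91 times their levels in myoid cells. Basement membrane and network collagens had 9 of 20, with the laminin chain Lama2 at 1397 CPM and Col15a1 at 807 CPM. Col4a1, a chain of basement membrane collagen, was at 797 CPM in the class against 836 CPM in myoid cells.

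Of the regulators and signals, some were highest in the class and others about as high in myoid cells. Of 26 mesenchymal transcription factors, 11 were highest here, among them Osr1 (157 CPM, 6.65 times the next class), Lhx9 (64.5 CPM, 4.61 times) and Twist1 (51.6 CPM, 7.14 times). Nr2f2, a nuclear receptor of interstitial progenitors, was nearly as high in myoid cells, at 113 CPM in the class against 99.4 CPM there. The growth factor ligands Igf1 (531 CPM) and Igf2 (338 CPM) were 2.64 and 3.59 times their next class. Of the Hedgehog, Wnt and Notch genes 6 of 15 were highest here, including Dlk1 (212 CPM), a Notch-like ligand of progenitors, and Gas1 (52.2 CPM), a Hedgehog coreceptor. The Hedgehog receptor Ptch1 was at 91.0 CPM, against 96.5 CPM in myoid cells. Cyp26b1, which breaks down retinoic acid, was at 819 CPM against 419 CPM in myoid cells. Of the complement, chemokine and immune genes 11 of 18 were highest here. C3, the central complement component, was at 261 CPM against 43.0 CPM in Leydig cells, and the chemokine Cxcl12 was at 235 CPM against 142 CPM in Leydig cells.

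Defining markers of the neighbouring cell types were low. The Leydig panel took 0.0301% of the UMI of the class. Cyp17a1, a steroid-synthesis enzyme, was at 12.8 CPM against 3394 CPM in Leydig cells. Star, another member, had a UMI in 8.88% of the cells of the class, against 60.2% of Leydig cells and 1.98% of myoid cells. The Sertoli panel took 0.0580% of UMI and was seen in 56.1% of the cells, against 0.665% and 94.4% in Sertoli cells. The myoid panel took 0.0385% and was seen in 37.3%, against 1.27% and 78.9% in myoid cells. Acta2, smooth muscle actin, was at 20.2 CPM against 3651 CPM in myoid cells, and Tagln and Cnn1 had 0 UMI, which allows up to 2.86 CPM over the class. The macrophage panel took 0.00695% of UMI. Of 10 endothelial markers, Tie1, Egfl7 and Cldn5 had 0 UMI, while Cdh5, a junction protein of endothelium, was at 136 CPM, against 169 CPM in myoid cells. Pdgfrb, a receptor of pericytes and myoid cells, was at 33.9 CPM against 171 CPM in myoid cells, and the pericyte gene Rgs5 had 0 UMI. Of the panels other than the fibroblast one, no member at 20 CPM or more had its highest mean here. By these markers the class as a whole bore the marks of fibroblast-like interstitial cells.

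A part of the cells also held spermatid RNA. The elongated spermatid panel was seen in 48.4% of the cells, against 60.8% of myoid cells, 74.8% of Leydig cells, 77.0% of Sertoli cells and 52.5% of macrophages, at the depths given above. In the class 114 of 608 cells (18.8%) held more UMI of another panel than of the fibroblast panel. For 112 of these 114 mixed cells that panel was the elongated spermatid one, and for 2 it was the Leydig one. The mixed cells had a median of 2375 UMI and a Dcn UMI in 81.6% of them. The other 494 cells had a median of 1190 UMI and a Dcn UMI in 99.0% of them. Germ cell panels took 3.16% of the UMI of the mixed cells and 0.163% of that of the others. The split was made by these panels, and Dcn is in the fibroblast panel. The contrasts in Dcn and germ cell share thus follow in part from the split and are no test. No doublet caller was run, so whether these are joined cells or free RNA was not tested.

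Within the class, cells were set side by side by Clec3b and Col15a1, markers known from other mouse organs to separate fibroblast states. Clec3b without Col15a1 was seen in 97 cells, Col15a1 without Clec3b in 210, both in 99 and neither in 202. Col15a1 was thus about as frequent in the cells with Clec3b (99 of 196, 50.5%) as in those without (210 of 412, 51.0%). Cells with Clec3b alone numbered 5, 2 and 30 in TD, TE and TF, against 23, 33 and 4 in TA, TB and TC. Cells with Col15a1 alone numbered 25, 12 and 52 in TD, TE and TF, against 51, 65 and 5 in TA, TB and TC. Both genes were chosen after their values were seen, so what follows is a description. It starts from 257 genes highest in the class and keeps those with the same direction in TF, TA and TB, the libraries with at least 10 cells of each kind. The genes named are among the 10 with the most extreme pooled ratio on each side. Their shared direction is thus part of how they were picked and gives no support. Tnxb was at 302 CPM in the cells with Clec3b alone against 76.4 CPM in those with Col15a1 alone. Gsn was at 8608 CPM against 3774 CPM, Thbd at 1491 CPM against 658 CPM and Serping1 at 1650 CPM against 756 CPM. In the other direction, Dlk1 was at 65.8 CPM in the cells with Clec3b alone against 350 CPM in those with Col15a1 alone. Tnfaip6, a hyaluronan-binding protein, was at 148 CPM against 608 CPM, and Gpx3, a secreted antioxidant enzyme, at 126 CPM against 492 CPM. Mfap4, a microfibril protein, was at 21.9 CPM against 184 CPM, from 4 and 70 UMI.

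**Figure D2:**
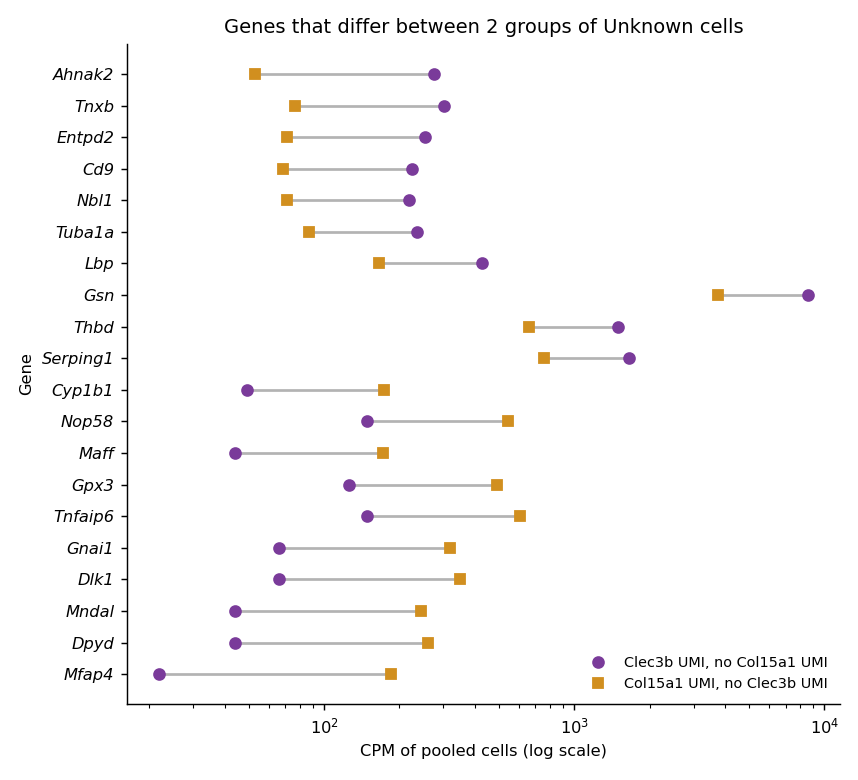
CPM (log scale) of 20 genes in pooled Unknown cells with a Clec3b UMI and no Col15a1 UMI (circles, 97 cells) and with a Col15a1 UMI and no Clec3b UMI (squares, 210 cells). They were picked as the 10 most extreme ratios on each side among genes with the same direction in TF, TA and TB. The lines join the 2 values of a gene: the upper 10 genes, led by Ahnak2 and Tnxb, were higher with Clec3b, and the lower 10, led by Mfap4, were higher with Col15a1.

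The size of the class did not differ between the genotypes beyond the spread of the libraries. It made up 0.727%, 0.543% and 1.69% of all cells in TD, TE and TF, against 1.76%, 2.22% and 0.502% in TA, TB and TC. The high libraries were TF, TA and TB, the set with the higher mitochondrial share, so the share went with the library set. The means were 0.986% ± 0.614 in NONO deltaER and 1.496% ± 0.891 in NONO (SD, n = 3 each; two-sided exact permutation p = 0.5, adjusted over 4 tests p = 0.667; 3 against 3 cannot go below 0.1). Without TC the NONO mean was 1.99% ± 0.326 (exact permutation p = 0.2, n = 3 and 2). The higher set has only TF from NONO deltaER, and the lower set only TC from NONO. Within the sets, NONO deltaER minus NONO was -0.31 percentage points in the higher and 0.133 in the lower one. Over all libraries it was -0.51, without TC -1.01 and without TB -0.15. Of the cells of the 5 somatic classes the class made up 11.5% ± 6.42 in NONO deltaER and 18.4% ± 12.1 in NONO (SD over 3 libraries each; two-sided exact permutation p = 0.7, adjusted over the 4 tests p = 0.7). That difference of -6.96 percentage points was -13.1 without TC, -1.03 without TB and -10.7 without TF.

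Median depth per cell was lower in every NONO deltaER library than in any NONO library, but did not pass the test. It was 897, 931 and 1083 UMI per cell in TD, TE and TF, against 1592, 1293 and 1300 in TA, TB and TC. The exact permutation p was 0.1, the smallest possible, with an adjusted p of 0.4. In macrophages the medians were 994, 854 and 857 UMI in TD, TE and TF, against 1384, 1136 and 892 in TA, TB and TC, and overlapped through TD. The median mitochondrial share per cell of the class was 0.994%, 0.958% and 0.999% in TD, TE and TF, against 0.805%, 0.850% and 0.540% in TA, TB and TC, without overlap. Germ cell panels took 1.78%, 3.18% and 1.14% of the UMI of the class in TD, TE and TF, against 0.843%, 0.962% and 1.91% in TA, TB and TC (two-sided exact permutation p = 0.3, adjusted p = 0.6).

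**Figure D3:**
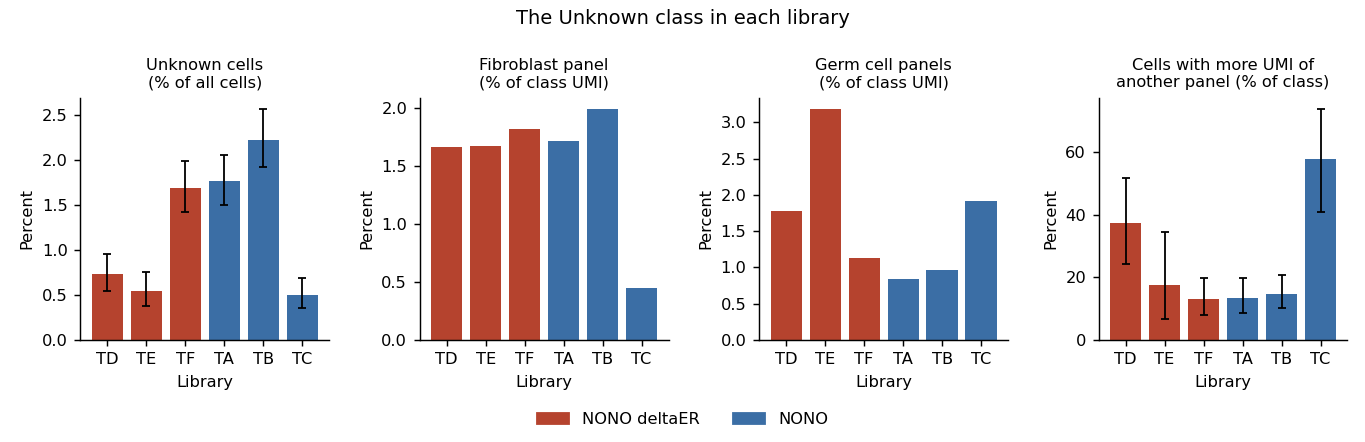
The Unknown class in each library (NONO deltaER red, NONO blue): its percent of all cells, the percent of its UMI in the fibroblast panel and in the germ cell panels, and the percent of its cells with more UMI of another panel. Bars are single libraries, and the whiskers of the first and last plot are exact 95% binomial intervals. TC has the lowest fibroblast share (0.443%) and the most mixed cells (57.9%).

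In the comparison of genotypes, no gene of the class passed the test when all its cells were used. With UMI summed per library, edgeR's quasi-likelihood test called 0 of 3531 genes (0%) at an adjusted p under 0.05, and DESeq2 called 0. At an unadjusted p under 0.05 edgeR had 101 genes and DESeq2 83. Without TA and without TB the only edgeR call was Hist1h1t, a histone of spermatocytes, and without TC the calls were Ccn1 and Mcl1, all of them lower in NONO deltaER. In sums over the class, fewer cells with the RNA of a gene and less of it per cell cannot be told apart. Nono itself was at 101, 179 and 102 CPM in TD, TE and TF, against 91.7, 101 and 32.3 CPM in TA, TB and TC (log2 fold change 0.52 ± 0.50 SE, adjusted p = 0.999). The libraries overlapped, and 3′ counts over the whole gene do not check an altered allele.

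The matrix and identity genes of the class did not pass in either direction. In the fibroblast panel 8 of 9 tested members were above 0, with a median log2 fold change of 0.31, against -0.03 over all genes tested. Without TC, 6 of 9 were below 0 and the median was -0.12. The fibrillar collagen list had 9 of 14 members above 0 (median 0.14) and the basement membrane list 17 of 18 (median 0.49). Without TC, these medians were -0.16 and 0.06. In the complement and chemokine list 12 of 17 were below 0 (median -0.14), and without TC 14 of 17 (median -0.39). Of the paraspeckle list 10 of 12 were below 0 (median -0.41), and 8 of 11 without the mixed cells (median -0.12). Neat1 had a log2 fold change of -0.87 ± 0.68 SE with overlapping libraries. Of the mitochondrially encoded genes 10 of 12 were above 0 (median 0.12), and without the mixed cells only 1 of 12 was below 0 (median 0.39).

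By the rule for fewer than 10 calls, the genes of lowest p without overlap between the genotypes are given as values. Libraries without overlap made up 5.61% of all genes tested on the higher side and 3.17% on the lower. On the higher side the 10 genes were mostly spermatid genes with their highest level in a round spermatid class. Tnp2, a transition protein of sperm chromatin, was at 3297, 4355 and 1117 CPM in TD, TE and TF, against 788, 874 and 775 CPM in TA, TB and TC. Tfam, a mitochondrial DNA-binding factor, was at 135, 398 and 155 CPM in TD, TE and TF, against 72.7, 39.3 and 43.1 CPM in TA, TB and TC. Ropn1, Spertl, Spata19 and Aqp7 were of the same kind, with log2 fold changes of 1.36 to 1.98. Germ cell panel shares were, like most of these genes, highest in TE, but overlapped between the genotypes, with TC above TD. Without the mixed cells Tnp2 was at 320, 457 and 130 CPM in TD, TE and TF, against 64.4, 127 and 132 CPM in TA, TB and TC. Tfam was then at 0, 0 and 20.5 CPM in TD, TE and TF, against 34.3, 4.24 and 0 CPM in TA, TB and TC. Both genes thus overlapped once those cells were left out. Tnp2 is in the elongated spermatid panel that decided which cells were left out, so its fall follows in part from that rule. TC then held 16 cells and 15164 UMI. On the lower side were the chemokine Cxcl1 and the spermatocyte genes Hist1h1t and Sycp2. Cxcl1 was at 16.8, 19.9 and 26.5 CPM in TD, TE and TF, against 82.2, 88.4 and 151 CPM in TA, TB and TC. The class held 59454 UMI in TD and 50284 in TE, so values this low there rest on very few UMI. Hist1h1t, a linker histone of the testis, was at 16.8, 99.4 and 83.9 CPM in TD, TE and TF, against 234, 115 and 1442 CPM in TA, TB and TC. TC was its highest library, and without TC its log2 fold change was -1.34 in place of -3.05, and that of Sycp2 -0.92 in place of -1.97. All adjusted p were 0.999.

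Immediate-early and stress genes lay on one side, without passing the test. These genes encode short-lived transcription factors and chaperones that cells make soon after a stimulus. All 24 tested members were below 0, where 52.3% of all genes tested were, with a median log2 fold change of -0.81. None passed at an adjusted p under 0.05. Unadjusted p was under 0.05 for 3, all lower (1.10% of all genes), and the libraries did not overlap for 3, all lower (against 3.17%): Atf3, Hsp90aa1 and Mt1. In 23 of 24 genes both TA and TB were above every NONO deltaER library, and TC mostly was not. The members were measured in the same 6 libraries, so they are not independent of each other, here or below. The median was -1.07 without TC, -0.53 without TB and -0.63 without TE. With the library set in the model it was -0.47 with 23 of 24 below 0, Hspa1b being the exception at 0.15.

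Fos, a subunit of the factor AP-1, was at 2691, 815 and 2716 CPM in TD, TE and TF, against 4172, 4369 and 1905 CPM in TA, TB and TC. Its log2 fold change was -0.80 ± 0.56 SE, and TC lay among the NONO deltaER libraries. Atf3, a stress-induced transcription factor, was at 404, 99.4 and 411 CPM in TD, TE and TF, against 943, 965 and 474 CPM in TA, TB and TC. Its log2 fold change was -1.40 ± 0.52 SE (edgeR adjusted p = 0.999), with no overlap. Hsp90aa1, an inducible chaperone, was at 1245, 636 and 1268 CPM in TD, TE and TF, against 2053, 1993 and 3057 CPM in TA, TB and TC. Hspa1a and Hspa1b are near-identical copies, so their split counts are uncertain.

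Summed over the list, these genes took 2.16%, 1.10% and 1.92% of the UMI of the class in TD, TE and TF, against 3.34%, 3.66% and 1.55% in TA, TB and TC. The genotypes overlapped through TC alone. Median UMI per cell was lower, and the median mitochondrial share higher, in every NONO deltaER library than in any NONO library, TC included. The part of either in these shares was not tested. Without the mixed cells the shares were 2.93%, 1.59% and 2.63% in TD, TE and TF, against 4.16%, 4.31% and 4.95% in TA, TB and TC, and did not overlap. The value of TC then rests on 16 cells and 15164 UMI. In the other somatic classes the list took 1.11% ± 0.083 of UMI in NONO deltaER and 1.19% ± 0.517 in NONO for myoid cells. It took 1.11% ± 0.144 in NONO deltaER and 1.26% ± 0.303 in NONO for Leydig cells, and 3.93% ± 0.777 in NONO deltaER and 2.89% ± 0.684 in NONO for macrophages (SD, n = 3 each). The median log2 fold change of the list was 0.08 in myoid cells, -0.17 in Leydig cells, 0.08 in Sertoli cells and 0.20 in macrophages, with no member passing edgeR's test in any of the 4. Members below 0 numbered 9 of 22, 21 of 24, 9 of 22 and 9 of 23 in the same order. The median over all genes tested was -0.01, 0.02, 0.01 and 0.03. At an unadjusted edgeR p under 0.05 there were 0, 0, 4 and 4 members, counted without regard to direction. The share of all genes at that threshold was not worked out for these classes.

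**Figure D4:**
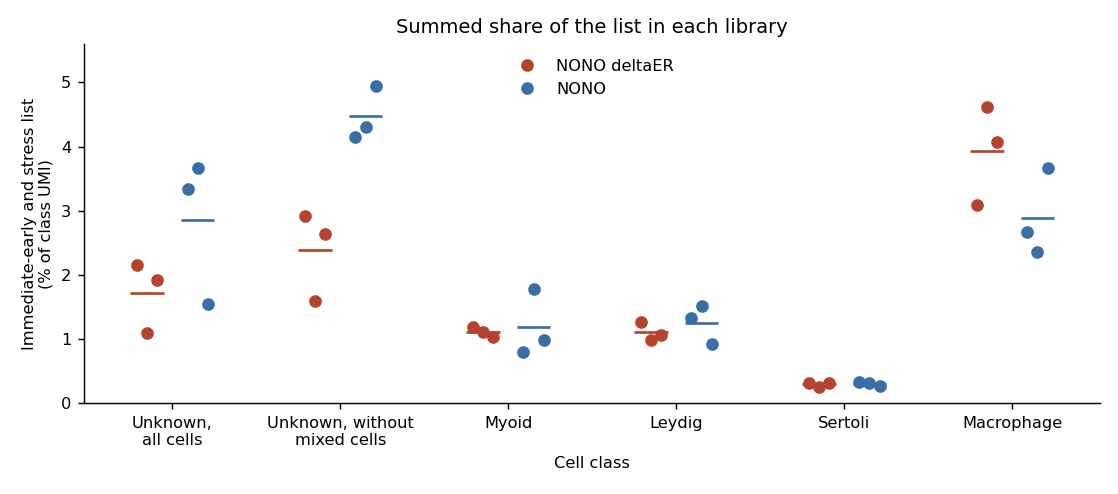
Percent of UMI in the immediate-early and stress list (y axis) in each library of NONO deltaER (red, left) and NONO (blue, right), for the Unknown class with and without its mixed cells and for 4 other somatic classes. Points are libraries and lines their means (n = 3). Without the mixed cells the Unknown class has 1.59% to 2.93% in NONO deltaER and 4.16% to 4.95% in NONO.

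Leaving out the mixed cells, an alternative to the comparison above, brought 14 of 1769 genes past the test, all of them lower in NONO deltaER (0.791%). Of the immediate-early list 22 of 22 tested were below 0, against 46.8% of all genes tested, with a median of -0.92, and 4 were among the 14: Fosb, Klf4, Nr4a1 and Atf3. Mcl1, an anti-apoptotic protein with a short half-life, had the lowest adjusted p. It fell to 288, 228 and 301 CPM in TD, TE and TF, against 674, 712 and 923 CPM in TA, TB and TC (log2 fold change -1.35 ± 0.25 SE, edgeR adjusted p = 0.0219). Ccn1, a matricellular protein, fell to 480, 267 and 383 CPM in TD, TE and TF, against 927, 882 and 594 CPM in TA, TB and TC (-1.21 ± 0.25 SE, edgeR adjusted p = 0.0380). Fosb, another AP-1 subunit, was at 576, 952 and 895 CPM in TD, TE and TF, against 1533, 1709 and 3165 CPM in TA, TB and TC (-1.26 ± 0.27 SE, edgeR adjusted p = 0.0380). For each of these genes every NONO deltaER library lay below every NONO library. Klf4, a zinc-finger transcription factor of growth arrest, and Nr4a1, an orphan nuclear receptor, had log2 fold changes of -1.15 and -1.02. Atf3 had -1.60.

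Mcl1 and Ccn1 were outside the list, as were the other 8 of the 14 genes, 6 of which are described here. Fosl2 (-1.14) encodes a further AP-1 subunit, and Irf1 (-1.16) a transcription factor of the interferon response. Hspa5 (-1.01) encodes the main chaperone of the endoplasmic reticulum. Nop58 (-1.17) encodes a protein of ribosomal RNA processing, Ddx3x (-1.03) an RNA helicase and Hk2 (-1.16) a glycolytic enzyme. The edgeR adjusted p of these 6 were all 0.0472. These calls depended on the libraries and the test. The number of genes tested also changed, so these counts are not alike. Without TB 0 of 509 genes passed, without TD 0 of 3412, and without TF 18 of 514, 1 of them higher in NONO deltaER. With the library set in the model 0 of 1769 passed. Without TA the only call among 517 genes was Fosb. Without TC 3 of 3481 passed: Ccn1, Hsp90aa1 and Mcl1. Without TE the calls among 3247 genes were Atf3, Fosb and Mcl1. DESeq2 called 2 of 1769 genes, Fosb among them.

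**Figure D5:**
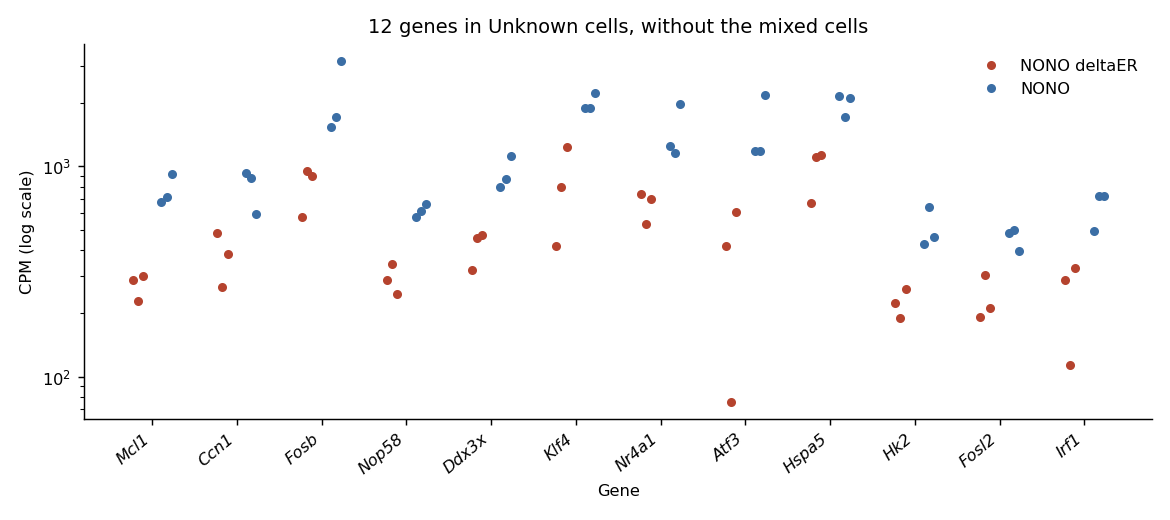
CPM (log scale) in each library of NONO deltaER (red) and NONO (blue) for 12 of the 14 genes past the test in Unknown cells once the mixed cells were left out, those with a RefSeq promoter entry. For each gene the 3 NONO deltaER libraries lie below the 3 NONO libraries, from Mcl1 (adjusted p = 0.0219) on the left to Irf1 on the right.

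The 14 genes were picked by their call on these data. The 250 bases before their start were read from RefSeq (build GRCm38.p6), which held 12 of the 14. The GC box GGGCGG, on either strand, was present in 12 of 12, with 1 to 5 copies each, overlapping ones counted. It was present in 32.9% of 27025 promoters, and in 60.9% of 2830 promoters of genes tested in the class. In the immediate-early list, which shares members with the 14 genes, it was in 20 of 23 promoters (87.0%). The AP-1 motif TGANTCA was in 1 of the 12 and in 6.87% of all promoters, and the cAMP response motif TGACGTCA in 0 of the 12 and in 1.62% of all. The CArG box CCWWWWWWGG (W for A or T) was in 0 of the 12 and in 1.40% of all. Whether these genes share a regulator was not tested. A match is a string of letters and not a bound site. The promoters of the 3 genes with the lowest adjusted p are shown 5′ to 3′, with GC boxes in capitals: Mcl1 at chr3:95658471-95658720 (plus strand), Ccn1 at chr3:145649986-145650235 and Fosb at chr7:19310046-19310295 (both minus strand).
Mcl1: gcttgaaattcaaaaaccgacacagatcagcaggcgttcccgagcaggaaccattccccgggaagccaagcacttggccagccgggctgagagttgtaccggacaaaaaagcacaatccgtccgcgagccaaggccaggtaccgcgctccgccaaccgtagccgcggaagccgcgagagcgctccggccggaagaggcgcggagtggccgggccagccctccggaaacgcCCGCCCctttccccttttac
Ccn1: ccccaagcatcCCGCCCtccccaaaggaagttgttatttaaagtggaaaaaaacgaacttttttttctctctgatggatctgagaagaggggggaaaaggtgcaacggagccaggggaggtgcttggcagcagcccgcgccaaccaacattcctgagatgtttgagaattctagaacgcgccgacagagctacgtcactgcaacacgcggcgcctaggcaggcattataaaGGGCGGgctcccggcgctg
Fosb: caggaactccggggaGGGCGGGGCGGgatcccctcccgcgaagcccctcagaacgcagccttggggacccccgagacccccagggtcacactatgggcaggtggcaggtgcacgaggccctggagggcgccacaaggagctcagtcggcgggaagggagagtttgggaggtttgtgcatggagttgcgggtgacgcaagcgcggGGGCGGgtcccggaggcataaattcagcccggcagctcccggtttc

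Whether the genotype difference of the class departed from that of its neighbours was tested with limma, from the log2 ratio between the 2 classes within a library. Against myoid cells 0 of 2899 genes (0%) passed, against Sertoli cells 0 of 3188 (0%), and against Leydig cells 1 of 3251 (0.0308%). A count of 0 here does not show that the responses were alike. Unadjusted p was under 0.05 for 290, 140 and 337 genes in the same order. The gene that passed against Leydig cells, Gm614, is a predicted gene. In the class it was at 118, 119 and 66.3 CPM in TD, TE and TF, against 38.0, 52.4 and 53.8 CPM in TA, TB and TC. In Leydig cells it was at 25.3, 31.8 and 19.2 CPM in TD, TE and TF, against 108, 97.9 and 132 CPM in TA, TB and TC. The 2 classes thus lay on opposite sides, with a difference of 2.78 on the log2 scale (limma adjusted p = 0.0369), from 5 to 16 UMI per library in the class. Spermatid genes lay on the same sides without passing, with differences of 2.60 for Prm1, 2.32 for Prm2, 3.05 for Tnp2 and 2.31 for H2al2a (limma adjusted p between 0.109 and 0.125). These 4 were chosen after their values were seen. Germ cell panels took 0.790%, 1.01% and 0.723% of the UMI of Leydig cells in TD, TE and TF, against 1.47%, 1.35% and 3.08% in TA, TB and TC, without overlap. The part of germ cell RNA in the result for Gm614 was not tested. Without TA the only call was Tfam. Without TB, TC, TD or TE 0 genes passed, and without TF 3 did: Tnp2, Gm614 and Prm1.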

How the data were processed

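Per the labels, adult mouse testes were digested with enzymes and libraries made with the 10x Genomics 3′ v2 protocol. The submitters' processing notes name Cell Ranger 2.1.1 and the build mm10, with no word on the annotation or on later steps. Counts come as deposited: the matrix holds raw UMI counts of 25771 genes in 46495 cells, and the deposited cell table gives library, group, class and mitochondrial percent, in percent of UMI as the authors deposited it. The lowest UMI total of a cell was 500 and the highest mitochondrial share 5.00%. The matrix sums equalled the deposited UMI totals in all 46495 cells.

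Cell classes were the authors'. UMI were summed per library and class, since cells are not replicates, and tested with edgeR 4.0.16 (quasi-likelihood fit with the robust option, TMM scaling, low genes removed by filterByExpr, Benjamini-Hochberg adjustment over all genes tested, threshold 0.05) in R 4.3.3. Alternatives used DESeq2 1.42.0. Responses were compared with limma 3.58.1 (prior count 2). Shares were compared by two-sided exact permutation tests. Levels are CPM as mean ± SD over libraries. The scripts were tested on simulated data with known changes. No doublet caller was run. Instead, cells with more UMI of another panel, or the 5% with the most UMI, were left out as alternatives. Depth limits precision: the smallest library of the class holds 34 cells.

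The class, its members, the 15 marker panels and the 15 gene lists were chosen with earlier results of these data known. Named genes are those of the panels and lists by role, the 25 genes with the highest ratio to the next class at 100 CPM or more, the 10 with the highest CPM, and, with fewer than 10 calls, the 10 of lowest p in each direction without overlap. Positions and names follow mm10. Which numbered sample each library letter stands for could not be read from the labels, so letters are kept. A few single-gene results are not reported here.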

Additional observations from a re-analysis of the deposited data

Results flagged for a closer look

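The response of Gm614 differed between the Unknown class and Leydig cells, by a test of the difference itself: 2.78 on the log2 scale (limma adjusted p = 0.0369, 3 libraries per genotype). The edgeR log2 fold change was 0.91 in the class and -2.18 in Leydig cells. In the class 3 of 3 NONO deltaER libraries were above every NONO library, and in Leydig cells 3 of 3 were below. The germ cell panels' share of the UMI of Leydig cells was also lower in every NONO deltaER library, at 0.723% to 1.01% against 1.35% to 3.08% in NONO, and its part was not tested. With the prior count of 0.5 in place of 2 the limma adjusted p was 0.0464. When a library was left out, Gm614 passed only without TF.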

How the results depend on the processing

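Of the alternatives to the genotype comparison of all cells, 1 gene passed with no filter on low counts, and between 0 and 2 passed when a library was left out (Hist1h1t without TA and without TB, Ccn1 and Mcl1 without TC). Without the mixed cells 14 passed by edgeR, 2 by DESeq2 and 0 with the library set as a covariate. Leaving out a library as well gave between 0 and 18, with between 509 and 3481 genes tested. These combinations with the mixed cells left out were added after seeing the data. The other alternatives (DESeq2, RLE or no factors, a filter of 10 CPM, the library set, cells with at least 1000 UMI, equal cells, without the 5% with the most UMI) gave 0. The cause of these differences was not tested, and fewer genes are tested once cells are left out. The genes that differed in response from Leydig cells numbered between 0 and 3 when a library was left out. Within the lower mitochondrial set, where TC was the only NONO library, the share of all cells (0.133 points) and of somatic cells (1.63 points) turned round. Hspa1b turned to 0.15 with the library set as a covariate. Of the alternatives to the main results, 79 kept their direction or count, 15 moved and 2 turned round. Of those for single genes or lists 510 kept it, 15 moved past the threshold and 1 turned round. Genes at least 4-fold above every other class numbered 34 to 47 when a library was left out, against 39. At least 2 UMI of the fibroblast panel were present in 589 cells, against 601 with at least 1. No paired analysis was possible because no label ties the library letters to replicate numbers. Depth limits the class most in TE, with 50284 UMI.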
